A study of Mus musculus with 7 samples.

Results

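Mitochondrial ribosomal protein genes were examined in RNA-seq libraries of hepatocytes, the main metabolic cells of the liver, isolated from mice. The genes were taken by name, as the rows of the expression table whose symbol begins with Mrpl or Mrps followed by a digit and does not mark a pseudogene. This gave 77 genes of the 12151 in the table, 48 with an Mrpl and 29 with an Mrps symbol, and no pseudogene symbol had to be left out. The series compared 3 wild-type (WT) libraries, whose treatment label names no agent, with 4 libraries labelled ALAS1/2-KO and tamoxifen. The ALAS1/2-KO design combined a conditional Alas1 allele, from which an inducible Cre removes exons 4 to 5, with depletion of Alas2 by injected siRNA joined to GalNAc, a sugar that hepatocytes take up. ALAS1 and ALAS2 are the aminolevulinate synthases that begin heme synthesis, the former in most tissues and the latter in red cell precursors. The sources used here name neither the promoter that drives Cre nor the age of the mice. Because tamoxifen and the siRNA go with the genotype, these factors cannot be told apart. The labels do not tie replicates to separate mice, so the p-values below reflect only how far these libraries vary, and that variation may be technical.

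The mitochondrial ribosome makes the few proteins encoded by mitochondrial DNA, which are core subunits of the respiratory complexes and of ATP synthase. Its ribosomal RNAs are transcribed inside the organelle, whereas its proteins are encoded in the nucleus, made in the cytosol and imported, so an intact ribosome draws on both genomes. Some of these proteins descend from bacterial ribosomal proteins and others were added in the mitochondrial lineage. The hepatocyte is rich in mitochondria and also hosts most heme synthesis of the liver, whose first and last steps lie in the mitochondrion.

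The libraries held 22916097 to 34048680 reads in WT and 27933939 to 30195635 in ALAS1/2-KO, of which 25704 to 43126 per library came from mitochondrial ribosomal protein genes. Alas2, the siRNA target, fell from 11.3 ± 5.18 CPM in WT (SD, n = 3) to 0.44 ± 0.26 CPM in ALAS1/2-KO (SD, n = 4). Here CPM is the count scaled to library size. In ALAS1/2-KO the 4 red cell markers in the table also summed lower, at 5.06 ± 2.25 CPM against 24.7 ± 15.3 CPM in WT. Among them Hbb-bt was called lower (limma adjusted p = 0.0483). Any part of red-lineage RNA in the Alas2 difference was not tested. Alas1 stood at 209 ± 109 and 322 ± 31.7 CPM, a difference that did not pass the test (limma adjusted p = 0.277), and a value for the whole gene does not check the loss of 2 exons. All 10 hepatocyte markers were present, and 1 of them, Alb, was called, as lower (limma log2 fold change -0.87, adjusted p = 0.00606). Estimates for 7 of the 10 lay above 0 and 3 below (median log2 fold change 0.245). In limma 3 were higher and 2 lower at an unadjusted p under 0.05. Of 32 markers of non-parenchymal liver cells 28 were in the table, while Krt7, Krt19, Epcam and Cd3e were not. The summed level of the 28 ran from 1183 to 1582 CPM in WT and 295.5 to 1635 CPM in ALAS1/2-KO. It was lowest in ALAS1/2-KO replicates 1 (295.5) and 2 (799.9). Of the 28 estimates 27 lay below 0 (median log2 fold change -0.94). By sum, ALAS1/2-KO stood at 0.848 of WT for macrophage, 0.585 for endothelial, 0.456 for stellate, 0.244 for cholangiocyte and 1.16 for lymphocyte markers. Spp1 and Cd79a were called lower (limma adjusted p = 0.0076 and 0.0335), where 2.19% of all genes were. Fewer cells of a type and less RNA per cell cannot be told apart in such bulk samples.

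On the deposited scale, Mrps18a was the only mitochondrial ribosomal protein gene that passed the test. Among the other 76 the estimates reached -0.52 (Mrpl34) and 0.50 (Mrps18b), and a gene that did not pass is not shown to be unchanged. Of the 77 genes 1 was lower and 0 were higher in ALAS1/2-KO (limma adjusted p under 0.05), where 5.1% of the 12105 genes tested were called in either direction and 2.19% were called lower. An unadjusted p under 0.05 was reached by 8 of the 77, 2 higher and 6 lower, against 23.7% of all genes, and limma voom on the recovered reads also called 0 higher and 1 lower. The libraries of the groups did not overlap for 10 of the 77, 5 in each direction, against 22.7% of all genes. All 77 had passed the filter on low values, with 59 reads for Mrps6 as the smallest count in any library.

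The estimates of the group were narrow. Their median log2 fold change was -0.05 (quartiles -0.17 and 0.07), beside -0.02 (quartiles -0.25 and 0.19) for all genes. They ran from -0.65 to 0.50, with 27 above and 50 below 0, and 74 of 77 lay within 0.5 of 0. For all 77 the 95% interval lay within 1 of 0, which held for 9070 of the 12105 genes tested, or 74.9%. On this scale a log2 change larger than 1 was therefore outside the interval of every member, while for 33 of 77 the interval still reached past 0.5. With libraries scaled to listed reads, the interval lay within 1 of 0 for 74 of the 77. The spread between libraries of a group had a median SD of 0.18 on the log2 scale for these genes and 0.21 for all genes.

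**Figure D1:**
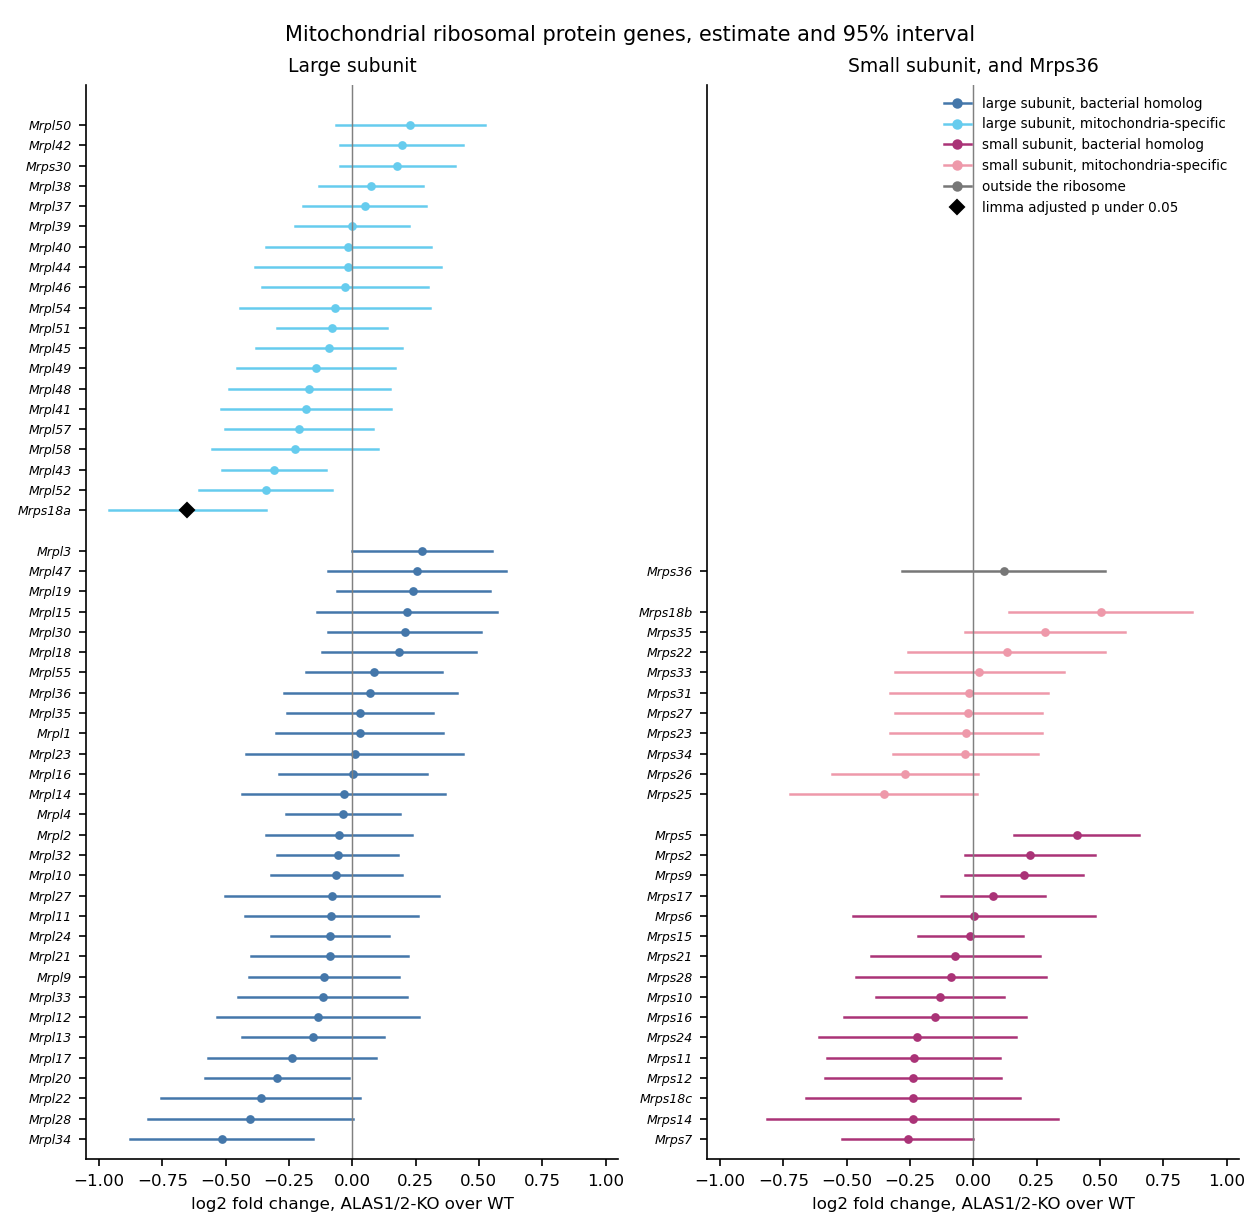
Log2 fold change of each of the 77 mitochondrial ribosomal protein genes (ALAS1/2-KO over WT, x axis) with its 95% interval from limma, by subunit and by whether the unified nomenclature gives the protein the name of a bacterial homolog. Each row is 1 gene; the black diamond marks Mrps18a, the gene with an adjusted p under 0.05, at -0.65, and all intervals stay between -1 and 1.

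On the deposited scale the sums of both subunits differed between the groups by less than the spread between libraries. The 50 large subunit genes summed to 908.5 ± 92.9 CPM in WT against 870.8 ± 70.1 CPM in ALAS1/2-KO, with a median log2 fold change of -0.06 and 1 gene called. The 26 small subunit genes summed to 356.9 ± 28.6 and 355 ± 28.6 CPM, with a median of -0.03 and 0 called in limma or in limma voom (3 at an unadjusted p under 0.05). Scaled to listed reads instead, neither subunit overlapped between the groups: the large subunit ran from 769 to 805 in WT and 836 to 1067 in ALAS1/2-KO, and the small subunit from 299 to 325 and 341 to 451. The ratio of the large to the small subunit sum within a library, which no scaling of libraries can alter, was 2.58, 2.58 and 2.47 in WT and 2.37, 2.52, 2.48 and 2.45 in ALAS1/2-KO. These ranges overlapped.

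Genes were also split by the unified ribosome nomenclature, into proteins that carry the name of a bacterial homolog and those with a mitochondria-specific name. By that naming Mrps18a and Mrps18b count as mitochondria-specific, although they are paralogs of Mrps18c, which carries the bacterial name S18, so the classes are classes of names and not of ancestry. The 30 large subunit genes with a bacterial homolog had a median log2 fold change of -0.06 with 0 called, and the 20 mitochondria-specific ones had a median of -0.08 with 1 called. In the small subunit the 16 genes with a bacterial homolog had a median of -0.11 and the 10 mitochondria-specific ones a median of -0.02, with 0 called in both. Limma voom gave the same counts of calls in these 4 classes. At an unadjusted p under 0.05 they held 2, 3, 2 and 1 genes. Mrps36, which despite its symbol encodes a component of the 2-oxoglutarate dehydrogenase complex, stood at 4.45 ± 0.18 CPM in WT against 4.90 ± 0.91 CPM in ALAS1/2-KO (log2 fold change 0.12, adjusted p = 0.714).

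The direction of the group as a whole depended on how libraries were scaled. The sum over the 77 genes was 1342, 1338 and 1130 CPM in WT against 1287, 1327, 1204 and 1105 CPM in ALAS1/2-KO, a ratio of means of 0.97 with overlapping ranges. The deposited values rest on scaled library sizes, which came to 0.80 to 1.00 of the listed reads for WT libraries and 1.07 to 1.18 for ALAS1/2-KO libraries. With each library scaled to its listed reads instead, the sum was 1122, 1071 and 1133 in WT and 1523, 1441, 1304 and 1181 in ALAS1/2-KO, a ratio of 1.23, and each ALAS1/2-KO library then lay above each WT library.

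On that scale 15 of the 77 genes were called higher and 0 lower, where 20.9% of all genes were called higher. At an unadjusted p under 0.05 the counts were 24 and 0 of the 77, against 4589 higher and 403 lower of 12125 genes. The median log2 fold change was then 0.28 for these genes and 0.32 for all genes, a shift of similar size. Relative to the median of all genes, the median of the mitochondrial ribosomal protein genes was -0.03 on both scales and lay between -0.07 and -0.03 over the 4 scalings tried. Scaling a library by a common factor shifts all its genes alike, so the agreement of both scales was fixed in advance. Of the 4, only quantile normalization, which gave -0.07, could alter this value by more than a trace. The RNA encoded by mitochondrial DNA took 31.9% to 43.2% of reads in WT and 16.8% to 27.3% in ALAS1/2-KO, and its part in the difference between the scales was not tested.

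**Figure D2:**
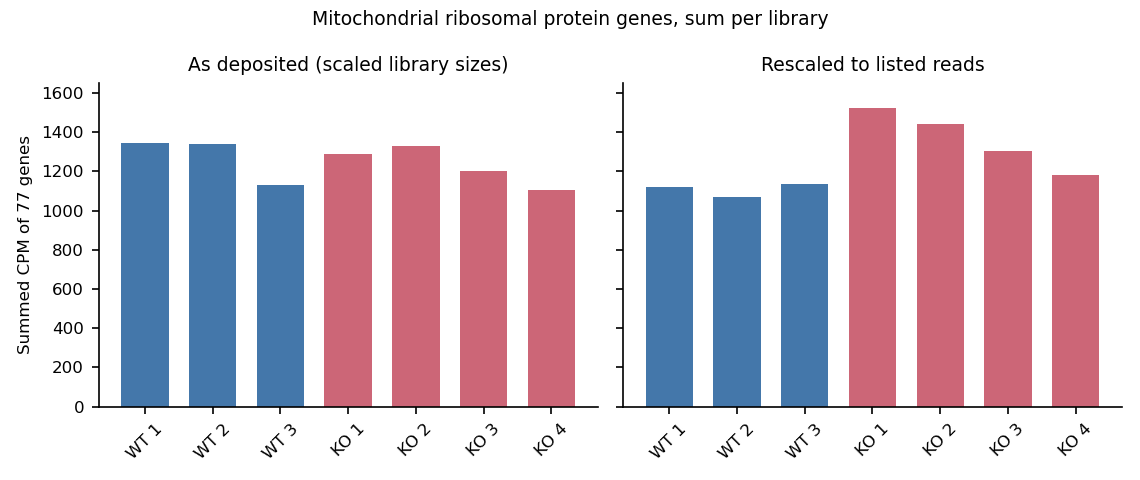
Summed CPM of the 77 mitochondrial ribosomal protein genes in each library (bars, y axis from 0), with the deposited library scaling (left) and scaled to listed reads (right). On the left the groups overlap (1130 to 1342 against 1105 to 1327); on the right each ALAS1/2-KO library, 1181 or more, lies above each WT library, 1133 or less.

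Mrps18a, the gene that fell, encodes a protein that the unified ribosome nomenclature places in the large subunit despite its small-subunit symbol. It is the paralog of Mrps18b and Mrps18c, which encode small subunit proteins, and all 3 are related to the bacterial protein S18. Mrps18a (ENSMUSG00000023967.9, chromosome 17, 46110986 to 46128910, plus strand, mm10) stood at 32.7, 29.6 and 25.7 CPM in WT against 20.2, 20.9, 18.3 and 15.3 CPM in ALAS1/2-KO. Each ALAS1/2-KO library lay below each WT library, and the means were 29.3 ± 3.52 and 18.7 ± 2.47 CPM (SD, n = 3 and 4). The gene was 1.57-fold lower in limma (log2 fold change -0.65, SE 0.14, 95% interval -0.96 to -0.34, adjusted p = 0.0347). It shared no exon bases with another gene in the annotation.

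The Mrps18a call was near the threshold. It held in 3 of the 7 fits that left out a library (without WT replicate 3 and without ALAS1/2-KO replicates 1 and 2) and was lost in the other 4, with an adjusted p of 0.112 without WT replicate 1, 0.153 without WT replicate 2, 0.0686 without ALAS1/2-KO replicate 3 and 0.0675 without ALAS1/2-KO replicate 4. It was also lost when scaled to listed reads (log2 fold change -0.32, adjusted p = 0.145). Relative to the median of all genes the value was -0.63 on that scale and -0.63 on the deposited one. These had to match, since rescaling shifts all genes of a library alike. Leaving out the ALAS1/2-KO libraries lowest in the sum of non-parenchymal markers, replicates 1 and 2, gave -0.80 (limma adjusted p = 0.00941). The ALAS1/2-KO libraries kept, replicates 3 and 4, held the lowest Mrps18a values of their group (18.3 and 15.3 CPM). A larger difference therefore had to follow, and a part of non-parenchymal cells in it was not tested.

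Mrps18b lay on the other side. Mrps18b (ENSMUSG00000024436.16, chromosome 17, 35910379 to 35916389, minus strand) stood at 12.6, 9.65 and 11.7 CPM in WT against 20.5, 15.4, 14.8 and 13.9 CPM in ALAS1/2-KO. The groups did not overlap, but the difference did not pass the test (log2 fold change 0.50, SE 0.16, 95% interval 0.14 to 0.86, limma adjusted p = 0.11). An antisense gene, Gm16279, shares 30.5% of its exon bases, and reads of the 2 cannot be told apart where strand was not used in counting. Mrps18c (chromosome 5, 100798627 to 100804471, plus strand) stood at 6.73, 6.99 and 4.39 CPM in WT against 4.96, 4.80, 5.01 and 5.24 CPM in ALAS1/2-KO, so its groups overlapped (log2 fold change -0.24, adjusted p = 0.468).

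Ratios within a library compare the paralogs without any library scaling. The ratio of Mrps18a to Mrps18b was 2.60, 3.07 and 2.19 in WT and 0.985, 1.36, 1.24 and 1.10 in ALAS1/2-KO. It could not overlap, since on the deposited scale each gene already lay apart between the groups, in opposite directions. Mrps18a made up 2.44%, 2.21% and 2.27% of all mitochondrial ribosomal protein CPM in WT against 1.57%, 1.57%, 1.52% and 1.39% in ALAS1/2-KO. The ratio of Mrps18a to Mrps18c overlapped between the groups (4.24 to 5.84 in WT, 2.92 to 4.35 in ALAS1/2-KO), as did that of Mrps18b to Mrps18c (1.38 to 2.67 and 2.65 to 4.13). These pairs were chosen after results of the data were known, so the ratios are given without a test.

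**Figure D3:**
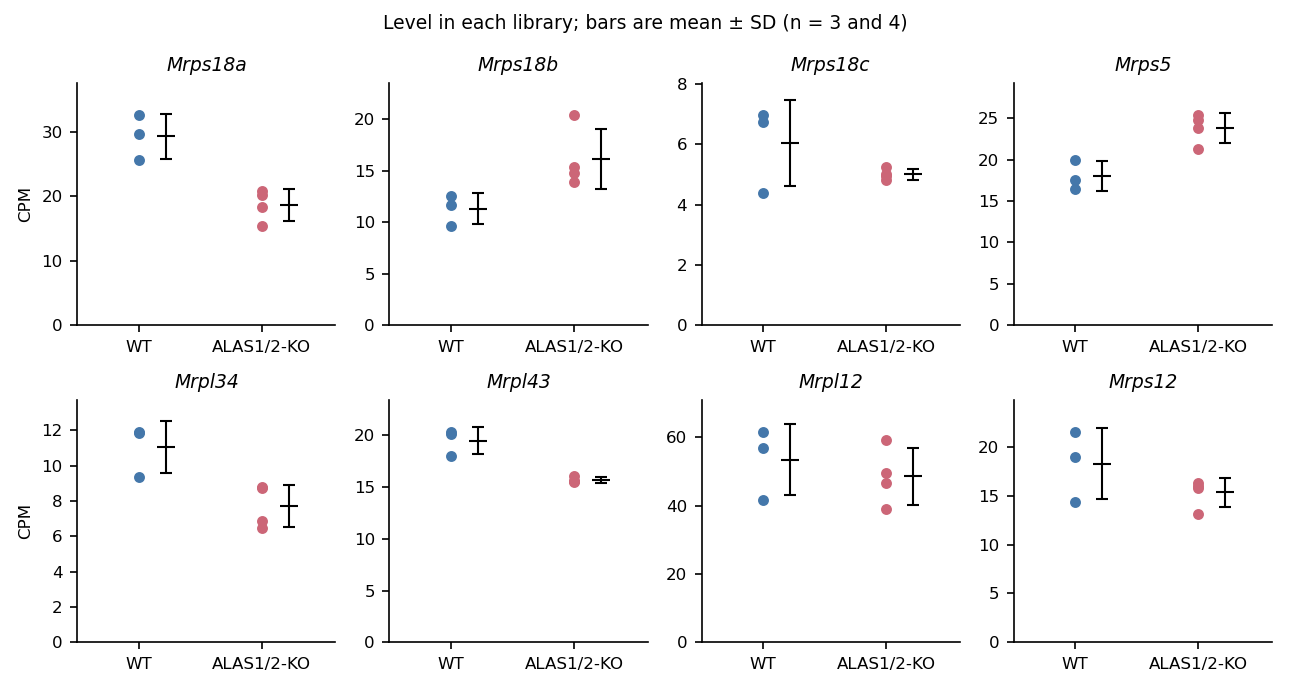
CPM in each library (points, y axis from 0) of 8 mitochondrial ribosomal protein genes, with mean ± SD per group (bars, n = 3 WT and 4 ALAS1/2-KO). Mrps18a, Mrpl34 and Mrpl43 are lower and Mrps18b and Mrps5 higher in every ALAS1/2-KO library than in all WT libraries; Mrps18c, Mrpl12 and Mrps12 overlap.

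The promoters of the 3 paralogs are shown because these genes share an ancestor and their estimates differed in direction. Each window runs from 250 bases before to 50 after the annotated start, read 5′ to 3′ on the gene's strand, from RefSeq on GRCm38.p6: chr17:46110754-46111053 (plus) for Mrps18a, chr17:35916391-35916690 (minus) for Mrps18b and chr5:100798509-100798808 (plus) for Mrps18c. These RefSeq starts differ from the GENCODE gene positions given above. By the GENCODE position, which ends at 35916389, the Mrps18b window lies wholly upstream of the gene. Capitals mark matches on either strand to CCGGAAG, an ETS-type motif bound by GABP, GCATGCGC, a motif of NRF1, or ATGGCGGC, a motif of YY1, which are factors known to act on promoters of nuclear genes for mitochondrial proteins.
Mrps18a: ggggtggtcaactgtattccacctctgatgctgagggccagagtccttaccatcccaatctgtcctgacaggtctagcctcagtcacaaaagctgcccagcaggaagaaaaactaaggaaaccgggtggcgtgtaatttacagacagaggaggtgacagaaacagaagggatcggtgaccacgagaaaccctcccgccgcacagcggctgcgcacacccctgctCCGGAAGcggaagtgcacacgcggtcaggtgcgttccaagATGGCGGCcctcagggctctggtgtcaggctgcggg
Mrps18b: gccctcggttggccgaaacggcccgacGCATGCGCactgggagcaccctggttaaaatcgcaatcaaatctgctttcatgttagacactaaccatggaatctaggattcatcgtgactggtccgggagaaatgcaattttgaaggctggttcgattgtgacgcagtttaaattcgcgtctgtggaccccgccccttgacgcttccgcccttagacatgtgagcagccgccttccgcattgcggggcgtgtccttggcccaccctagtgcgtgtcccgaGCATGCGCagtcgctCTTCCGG
Mrps18c: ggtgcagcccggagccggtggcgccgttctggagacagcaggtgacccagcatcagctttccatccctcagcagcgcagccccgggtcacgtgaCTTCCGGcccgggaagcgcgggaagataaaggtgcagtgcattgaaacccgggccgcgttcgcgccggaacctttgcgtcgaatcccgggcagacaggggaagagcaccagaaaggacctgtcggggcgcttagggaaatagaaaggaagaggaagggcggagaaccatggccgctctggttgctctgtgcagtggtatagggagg
Mrps18a held the ETS-type and the YY1 motif, Mrps18b held 2 NRF1 motifs and the ETS-type motif on the opposite strand (as CTTCCGG), and Mrps18c held the ETS-type motif on the opposite strand. None of these matches overlapped another. Each is a match of letters and was not tested as a binding site. The YY1 match in Mrps18a begins with ATG, the usual start codon, and lies after the annotated start. It may therefore be part of the coding sequence.

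RefSeq windows were found for 68 of the 77 genes, 74 windows in all. The ETS-type motif stood in 25 (33.8%) of them, against 17.4% of the 12075 windows of tested genes and 8.86% of all 32851 windows of that length. NRF1's motif stood in 8 (10.8%), against 5.07% and 2.71%, and YY1's in 11 (14.9%), against 4.76% and 2.24%. Of 72 windows of cytoplasmic ribosomal protein genes, 33.3% held the ETS-type, 4.17% the NRF1 and 6.94% the YY1 motif. At least 1 of the 3 motifs stood in 35 of the 74 windows (47.3%), against 24.7% and 12.7%. The YY1 string begins with ATG, so its matches may include starts of coding sequences, which were not set apart. These shares describe the windows and were given no test.

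Of the factors themselves, Gabpa, Nrf1 and Yy1 stayed within the spread between libraries: 23.4 ± 2.68 and 25 ± 3.11 CPM for Gabpa (WT and ALAS1/2-KO), 7.44 ± 0.22 and 7.07 ± 0.69 CPM for Nrf1, and 38.6 ± 2.17 and 38.7 ± 1.43 CPM for Yy1. Among 9 regulators of nuclear genes for mitochondrial proteins 2 rose. Ppargc1b, a coactivator of mitochondrial biogenesis, rose from 3.23 ± 0.85 to 7.98 ± 1.36 CPM (limma log2 fold change 1.30, adjusted p = 0.0197), held in 4 of 7 fits that left out a library. Esrra, an orphan nuclear receptor that works with such coactivators, rose from 15.1 ± 1.69 to 22.4 ± 2.20 CPM (limma log2 fold change 0.57, adjusted p = 0.0342), held in 1 of 7. These rises stood beside a median log2 fold change of -0.05 for the mitochondrial ribosomal protein genes.

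The genes with the next smallest p-values in either direction were Mrps5, Mrpl43, Mrpl34 and Mrps18b, and none passed the adjusted threshold. Mrps5, a small subunit protein with a bacterial homolog, stood at 17.5, 16.4 and 20 CPM in WT against 25.5, 24.8, 23.8 and 21.3 CPM in ALAS1/2-KO (log2 fold change 0.41, SE 0.11, limma adjusted p = 0.0712). Mrpl34, a large subunit protein with a bacterial homolog, stood at 11.8, 11.9 and 9.34 CPM in WT against 8.71, 6.49, 8.77 and 6.89 CPM in ALAS1/2-KO (log2 fold change -0.52, SE 0.16, limma adjusted p = 0.104). Both genes had groups without overlap, Mrps5 higher and Mrpl34 lower in ALAS1/2-KO. Mrpl43, a mitochondria-specific large subunit protein, stood at 20.1, 20.3 and 18 CPM in WT against 16.1, 15.6, 15.6 and 15.4 CPM in ALAS1/2-KO (log2 fold change -0.31, SE 0.09, limma adjusted p = 0.0897).

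Mrpl43 shares 33.4% of its exon bases with Twnk, the mitochondrial DNA helicase gene on the opposite strand, which stood at 22.5 ± 0.38 and 21.2 ± 3.33 CPM. With limma array weights, which give less weight to libraries that vary more, 2 of the 77 genes were called higher and 7 lower, where 16.5% of all genes were called, and Mrps5, Mrps18b, Mrpl34 and Mrpl43 were among the 9. The other genes without overlap between the groups, named after their values were seen, were Mrpl52 and Mrps26 on the lower side and Mrpl3, Mrps9 and Mrps30 on the higher side. Mrpl52 stood at 18 ± 2.46 and 14.1 ± 0.70 CPM (log2 fold change -0.34, limma adjusted p = 0.128). Mrps30, another protein with a small-subunit symbol that belongs to the large subunit, stood at 13.2, 13.2 and 13.1 CPM in WT against 15.2, 16.6, 14.5 and 13.7 CPM in ALAS1/2-KO (log2 fold change 0.18, limma adjusted p = 0.318).

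The remaining extremes of the range did not pass the test. On the higher side Mrps35, Mrpl3 and Mrpl47 had log2 fold changes of 0.28, 0.28 and 0.25 (limma adjusted p = 0.255, 0.211 and 0.354). On the lower side Mrpl28, Mrpl22 and Mrps25 had -0.40, -0.36 and -0.35 (limma adjusted p = 0.215, 0.244 and 0.227). Mrpl28 varied widely among the WT libraries: it stood at 25.7, 21.4 and 15.1 CPM in WT against 13.9, 15.8, 17.4 and 14.3 CPM in ALAS1/2-KO, so that WT replicate 3 lay inside the ALAS1/2-KO range. Mrps25 shares 69.8% of its exon bases with Nr2c2 on the opposite strand, so its level is uncertain. In all, 32 of the 77 genes share exon bases with another annotated gene and 5 share over 30%.

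The proteins of known functional sites described here did not pass the test. On the deposited scale all 4 estimates lay below 0, and scaled to listed reads all 4 lay above 0. Mrpl10 and Mrpl12 form the stalk that recruits translation factors, and Mrpl11 lies at its base. Mrpl12 stood at 61.5, 56.8 and 41.8 CPM in WT against 46.5, 59.0, 49.6 and 38.9 CPM in ALAS1/2-KO, overlapping over most of the range (log2 fold change -0.13, SE 0.17, adjusted p = 0.679). Mrpl10 and Mrpl11 had log2 fold changes of -0.06 and -0.08 (limma adjusted p = 0.772 and 0.771). Mrps12, at the decoding centre of the small subunit, stood at 18.3 ± 3.65 and 15.3 ± 1.45 CPM (log2 fold change -0.24, limma adjusted p = 0.382).

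Of the genes with the most reads, Mrpl12, Mrpl18, Mrpl24, Mrps7 and Mrpl38, the last 4 had log2 fold changes of 0.18, -0.09, -0.26 and 0.07, and none passed the test. Of those with the fewest, Mrps6, Mrps36, Mrpl33, Mrps18c and Mrps11, the values for Mrps6, Mrpl33 and Mrps11 were 0.00, -0.12 and -0.24. Mrps6 was the least precise of these, with an SE of 0.21. Mrps14 had a wide range over libraries, at 14.0, 15.4 and 8.17 CPM in WT against 13.0, 11.4, 9.11 and 8.08 CPM in ALAS1/2-KO, where WT replicate 3 stood close to the lowest ALAS1/2-KO library.

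Per kilobase of transcript, the genes differed far more from each other than between the groups. The median level was 10.1 CPM per kb (quartiles 5.2 and 16.7), with Mrpl42 (38.9), Mrpl12 (38.4) and Mrpl52 (37.7) at the top, a spacing smaller than the spread of Mrpl12 between libraries (29.6 to 46.8 CPM per kb). The bottom, Mrps25 at 1.23 CPM per kb, rests on an annotated transcript of 6073 bases, and a shorter transcript in these cells would raise the value. The median was 12.3 CPM per kb for large and 8.73 for small subunit genes, and 93.5 for 79 cytoplasmic ribosomal protein genes, 9.25 times that of the mitochondrial ones. The order over the 77 genes was nearly the same in both groups (Spearman's rho 0.98 between group means, across genes, which share libraries and are not independent replicates).

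On the deposited scale the genes shared an order of libraries within each group. WT replicate 3 held the lowest WT value for 58 of the 77 genes (75.3%), against 36.3% of all genes tested. In ALAS1/2-KO, replicate 4 held the lowest value for 56 of the 77 (72.7%), against 23.5%. The libraries concerned lay a median of 0.15 and 0.16 below their group mean on the log2 scale. The 83 cytoplasmic ribosomal protein genes shared the first pattern, with 76 (91.6%) lowest in WT replicate 3. They shared less of the second, with 29 (34.9%) lowest in ALAS1/2-KO replicate 4. Scaled to listed reads, the sum over the 77 genes was highest in WT replicate 3 (1133, against 1122 and 1071 in replicates 1 and 2). ALAS1/2-KO replicate 4 still held the lowest sum of its group (1181). The cytoplasmic sum in WT was then 6635, 6357 and 6452, so replicate 3 was not lowest. On the deposited scale, the median log2 fold change of the mitochondrial ribosomal protein genes was -0.15 without WT replicate 3. It was 0.01 without ALAS1/2-KO replicate 4. Non-parenchymal markers summed to 1582 CPM in WT replicate 3, the highest in WT, and to 1417 CPM in ALAS1/2-KO replicate 4, below replicate 3 (1635), and their part in these orders was not tested.

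**Figure D4:**
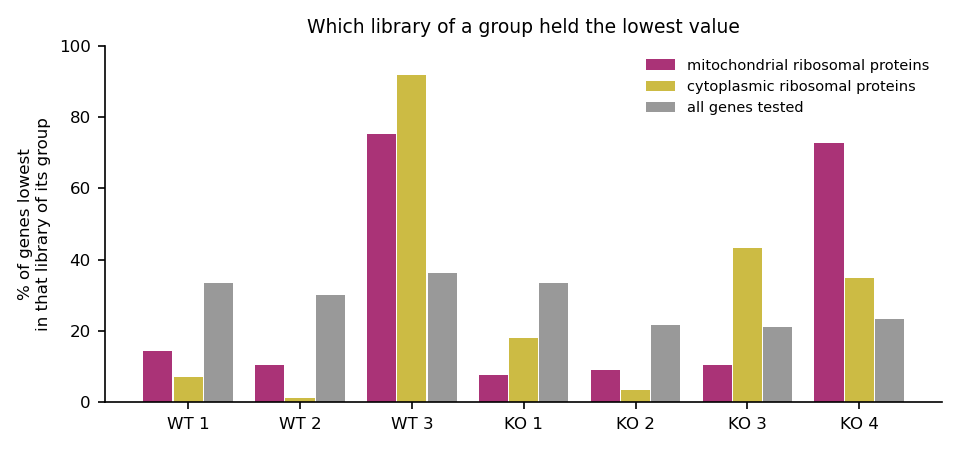
Share of genes (y axis, %) whose lowest value within their group fell in a given library (x axis), for the 77 mitochondrial and 83 cytoplasmic ribosomal protein genes and all 12105 genes tested. On the deposited scale, WT 3 (75.3%) and KO 4 (72.7%) hold most of the lowest values of the mitochondrial ribosomal protein genes.

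Other genes of mitochondrial translation held few calls. The 5 ribosomal proteins outside the Mrp naming that were tested (Dap3, Ptcd3, Chchd1, Aurkaip1 and Gadd45gip1) included 0 called in limma or limma voom, 2 at an unadjusted p under 0.05. Ptcd3, a small subunit protein, stood at 20.3 ± 0.62 and 27.2 ± 3.70 CPM (log2 fold change 0.41, limma adjusted p = 0.0823). Aurkaip1, a small subunit protein too, stood at 27.2 ± 3.82 and 24 ± 3.10 CPM (log2 fold change -0.18, limma adjusted p = 0.468).

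The 28 genes of ribosome assembly and rRNA modification had a median log2 fold change of 0.09, the 14 translation factors 0.10 and the 20 aminoacyl-tRNA synthetases and amidotransferase subunits 0.11. In each of these 3 lists 0 were called in limma or limma voom and 1 gene had an unadjusted p under 0.05. Scaled to listed reads, 5, 3 and 3 genes were called higher, with 17, 7 and 13 at an unadjusted p under 0.05. Of all genes on that scale 20.9% were called higher, and 4589 of 12125 were higher at an unadjusted p under 0.05. Tufm, the elongation factor that delivers aminoacyl-tRNA, stood at 39.5 ± 4.99 and 43.5 ± 5.09 CPM. Gfm1, the factor for translocation, stood at 36.2 ± 1.58 and 44.3 ± 5.49 CPM (log2 fold change 0.28, limma adjusted p = 0.186). Of 14 genes of mitochondrial transcription and RNA handling 1 rose: Supv3l1, the helicase of mitochondrial RNA decay, from 8.09 ± 0.60 to 11.2 ± 0.74 CPM (limma log2 fold change 0.47, adjusted p = 0.0493), a call that held in 0 of 7 fits that left out a library.

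Genes used here as a reference for mitochondrial content had estimates above 0, and their calls depended on the scaling. On the deposited scale all 12, among them Cs, Vdac1 and Hspa9, lay above 0 (median log2 fold change 0.18), with 0 called by limma, with or without voom, and 2 at an unadjusted p under 0.05. Scaled to listed reads, where 20.9% of all genes were called higher, 10 of the 12 were called higher (median 0.52). Their sum over that of the 77 ribosomal genes was 0.652, 0.673 and 0.711 in WT and 0.836, 0.755, 0.771 and 0.794 in ALAS1/2-KO, without overlap. For cytoplasmic ribosomal proteins the direction turned with the scaling. On the deposited scale 81 of 83 estimates lay below 0 (median -0.18), with 0 called by limma, with or without voom. At an unadjusted p under 0.05, 18 of the 83 were lower, against 1440 of 12105 genes. With limma array weights 21 of the 83 were called lower, against 971 of 12105 genes. Scaled to listed reads, 70 of 83 lay above 0 (median 0.15), with 0 called and 7 higher at an unadjusted p under 0.05. Their summed level in ALAS1/2-KO was 0.87 of that in WT on the deposited scale and 1.10 on the other. Within a library, their sum over that of the mitochondrial ribosomal genes was 5.92, 5.93 and 5.69 in WT and 5.10, 5.04, 5.21 and 5.68 in ALAS1/2-KO, apart by a narrow margin between WT replicate 3 and ALAS1/2-KO replicate 4.

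The RNA that the mitochondrial ribosome contains and translates stood lower in ALAS1/2-KO. All 15 messenger and ribosomal RNAs of mitochondrial DNA had estimates below 0 (median log2 fold change -1.21). In limma on the deposited scale 5 of them fell (mt-Nd3, mt-Co3, mt-Nd4l, mt-Nd2 and mt-Atp6), where 2.19% of all genes were called lower. All 15 had an unadjusted p under 0.05, against 1440 lower of 12105 genes. Scaled to listed reads, 12 of the 15 were called lower, against 202 of 12125 genes. Limma array weights called all 15 lower, against 971 of 12105 genes. Over all libraries mt-Nd3 and mt-Nd4l averaged 4.68 and 6.21 CPM, mt-Atp6 and mt-Co3 118 and 240 CPM, and mt-Nd2 45584 CPM. The abundant mt-Cytb, at 57743 CPM, was not called on the deposited scale (limma adjusted p = 0.0669) but was called when scaled to listed reads (limma adjusted p = 0.0341). On the deposited scale the calls of mt-Nd3, mt-Co3 and mt-Nd2 held in 2, that of mt-Nd4l in 3 and that of mt-Atp6 in 1 of the 7 fits that left out a library. The ribosomal RNAs mt-Rnr1 and mt-Rnr2, partners of these proteins in the ribosome, stood at 5982 ± 1906 and 6833 ± 2998 CPM in WT against 2552 ± 633 and 2447 ± 747 CPM in ALAS1/2-KO (limma adjusted p = 0.0517 and 0.0943). Scaled to listed reads, both were called lower (limma adjusted p = 0.0228 and 0.044). The summed level of mitochondrially encoded genes over that of the 77 ribosomal protein genes was 343, 404 and 282 in WT and 110, 175, 209 and 218 in ALAS1/2-KO. Each ALAS1/2-KO library thus lay below each WT library in this ratio, which no library scaling alters. Copies of mitochondrial sequence in the nuclear genome may share some of these reads.

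**Figure D5:**
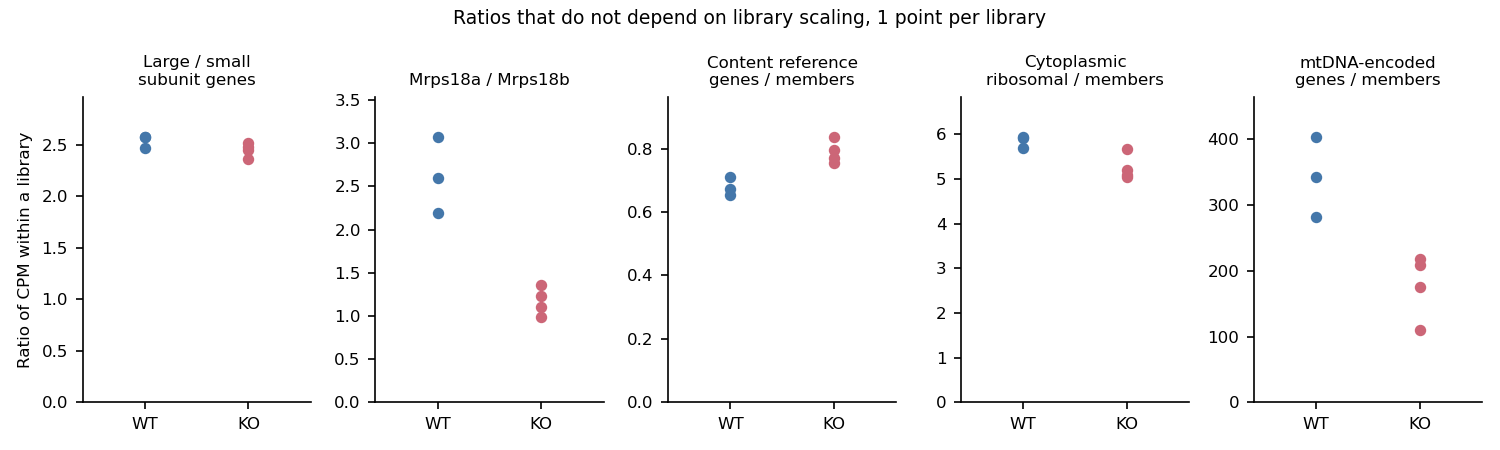
Ratios of CPM within each library (points, y axis from 0), which do not depend on library scaling, for WT (n = 3) and ALAS1/2-KO (n = 4); members are the 77 mitochondrial ribosomal protein genes. The large to small subunit ratio overlaps between the groups (2.47 to 2.58 and 2.37 to 2.52), while Mrps18a over Mrps18b and mitochondrially encoded genes over members are lower, and content reference genes over members higher, in every ALAS1/2-KO library. Mrps18a and Mrps18b each lay apart between the groups in opposite directions, so their ratio could not overlap.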

How the data were processed

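RNA was measured in 7 hepatocyte libraries, and columns headed AL were taken as ALAS1/2-KO. Per the labels' protocols, libraries were made from Trizol-extracted total RNA with a TruSeq RNA kit, and per the submitters' processing notes cutadapt, HISAT2 and the build mm10 were used. The sources used here name no read counter, strand handling or software behind the values. The authors deposited log2 CPM with a prior. Its floor of 0.0676 CPM was subtracted to give CPM, and the steps between values gave whole reads, within 0.01 reads, for 99.99% of values in WT replicate 2 and 100% in the other libraries.

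The 12105 genes that reached 1 CPM in 3 or more libraries were tested on the deposited log2 values with limma 3.58.1 in R 4.3.3, with intensity trend, robust variance moderation and Benjamini-Hochberg adjustment over all genes tested. P-values are two-sided. The prior slightly understates fold changes of low genes. The procedure was tested on simulated data. Positions, exon overlaps and transcript lengths came from GENCODE M21, in which all 77 genes matched 1 gene. Lengths are those of the longest principal coding transcript.

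The genes and lists were chosen with earlier results of these data known. Genes named were those called, the 5 with most and the 5 with fewest reads, the 5 highest and the 5 lowest fold changes, the 5 smallest p-values, the 3 widest ranges over libraries, and proteins fixed for their place in the ribosome. From each other list up to 4 called genes, or 2 abundant ones, were named; exceptions in the text were named after their values were seen. Alternatives were other pseudocounts, filters, library scalings and limma settings, a replicate block, and leaving out libraries.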

Additional observations from a re-analysis of the deposited data

Results flagged for a closer look

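In the 4 ALAS1/2-KO libraries, 1 value stood apart from the other 3 for 4 of the 27 sets of values examined (the named genes and the sum over all 77), by the ratio of its gap to the whole range, read against Dixon's critical value. Chance sets off this rule in about 1 of 20 groups. Mrpl18, a large subunit protein, was high in replicate 2 at 54.4 CPM, with the others at 38.8 to 41.5 CPM (ratio 0.83). Mrpl11, at the base of the stalk, was high in the same library at 15.1 CPM against 11.6 to 12.1 CPM (ratio 0.86). Mrps25 was high in replicate 1 at 8.35 CPM against 6.03 to 6.36 CPM (ratio 0.86). Mrps12, at the decoding centre, was low in replicate 4 at 13.2 CPM against 15.8 to 16.3 CPM (ratio 0.831). None of these 4 genes passed the test between the groups.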

How the results depend on the processing

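Library scaling had the widest effect. Scaled to listed reads, 15 of the mitochondrial ribosomal protein genes and 2739 of all genes were called (92.6% of the latter higher, against 57.1% as deposited), the median log2 fold change was 0.283 and the ratio of sums 1.23. There the estimate changed sign for Mrpl12 (0.201), Mrpl24 (0.247), Mrps7 (0.075), Mrpl33 (0.213), Mrps18c (0.093), Mrps11 (0.095), Mrpl43 (0.025), Mrps14 (0.094), Mrpl10 (0.272), Mrpl11 (0.25) and Mrps12 (0.096), by construction, since all genes shifted up. Scaling that left out mitochondrial genes and the 20 most abundant ones called 2 of the genes, Mrps18a and Mrpl43, with 42.2% of all calls higher. Without trend limma called 0 of these genes and 306 of all, and with array weights 9 and 2001.

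Libraries with the same replicate number showed little shared deviation from their group means, with correlations of -0.03, 0.05 and 0.18. WT replicate 2 correlated most with ALAS1/2-KO replicate 1 (0.36). Deviations from means of so few libraries are tied to each other, so these values cannot exclude a pairing. A fit with a replicate block called 0 of these genes and 72 of all. Without ALAS1/2-KO replicates 1 and 2 together 1130 genes were called, and Mrps36 turned to -0.049. Leaving out 1 library gave 0 to 1 calls among these genes and 100 to 802 among all. Mrps6, at 0.002, changed sign to -0.001 with a pseudocount of 1, -0.06 without the abundant genes in scaling, -0.025 with array weights and -0.054 with the block, and ranged from -0.154 to 0.122 over fits that left out a library. The causes were not tested. For 33 of the 77 genes the 95% interval reached past 0.5 on the log2 scale.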

Other observations

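The neighbours Gtpbp2, Mad2l1bp and Polh of Mrps18a on chromosome 17, named after their values were seen, were not called in either direction. Gtpbp2, a GTPase involved in rescue of stalled cytosolic ribosomes, stood at 26.7 ± 0.56 CPM in WT against 34.5 ± 2.66 CPM in ALAS1/2-KO (mean and SD of 3 and 4 libraries, limma log2 fold change 0.36, adjusted p = 0.0635), with each ALAS1/2-KO library above all 3 WT libraries. Mad2l1bp, a regulator of the mitotic checkpoint, stood at 3.65 ± 0.62 and 3.49 ± 0.49 CPM, and Polh, a translesion DNA polymerase, at 3.53 ± 0.33 and 3.01 ± 0.31 CPM. Neither of the latter passed the test (limma adjusted p = 0.89 and 0.478).

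Tfam, the factor that packages and transcribes mitochondrial DNA, stood at 37.7 ± 3.17 CPM in WT against 30.9 ± 3.81 CPM in ALAS1/2-KO (limma log2 fold change -0.29, adjusted p = 0.184), and Polrmt, the mitochondrial RNA polymerase, at 15.8 ± 1.85 and 18 ± 1.22 CPM (log2 fold change 0.19, adjusted p = 0.344). Both had overlapping groups.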
